A study of Mus musculus with 29 samples.

Results

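The genes of the cytosolic ribosomal proteins were followed through brain RNA of 2 mouse lines in which the ribosomes of 1 glial cell type carry a tag. All gene rows whose symbol begins with Rpl or Rps and a digit, together with Rplp0, Rplp1, Rplp2 and Rpsa, were taken, and the S6 kinases and the rows marked as pseudogenes were left out. This gave 86 rows, of which 82 had a count above 20 in all libraries of some group, out of 36172 gene rows in all and 14132 that passed the same filter. These 82 genes comprised 46 of the large subunit, 33 of the small subunit and the 3 genes of the stalk, and all 82 passed in all 6 groups, so that the filter removed none of them in any comparison. The 4 rows that did not pass were Rps3a, which was listed at 0 in every library, and Rpl10l, Rpl39l and Rpl3l, whose products are known mainly from testis or striated muscle. Rps3a is annotated as protein-coding, and why its row holds 0 was not tested. Its row is not read as absence of the mRNA, and the set lacks this small subunit protein. The symbol alone decided membership, so the set also holds Rps19bp1, a nucleolar protein that binds RPS19 and SIRT1, Rpl7l1, a relative of Rpl7 that acts in large subunit assembly, and Rps4y2, which the annotation lists as a pseudogene.

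The cytosolic ribosome is built from ribosomal RNA and 1 copy of nearly every ribosomal protein, in a small subunit that reads the mRNA and a large subunit that joins the amino acids, and its acidic stalk recruits elongation factors. The mRNAs of these proteins are short and abundant, and most begin with a C followed by a run of pyrimidines, the terminal oligopyrimidine (TOP) motif, through which mTOR signalling and LARP1 set how many of them are on polysomes. Several proteins have a paralog that can stand in for them, such as RPS27L for RPS27 and RPL22L1 for RPL22. RPL10A, known for its use as the anchor of ribosome tags, is one of the proteins of the large subunit.

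All animals carried the NuTRAP allele, from which Cre recombination releases the ribosomal protein L10a fused to EGFP, together with a tamoxifen-dependent Cre. The Cre is driven by Aldh1l1 in Aldh1l1-Cre/Ert2+; NuTRAP+ mice (Aldh1l1-NuTRAP, astrocytes) and by Cx3cr1 in Cx3cr1-Cre/Ert2+; NuTRAP+ mice (Cx3cr1-NuTRAP, microglia), and every group received tamoxifen, at 100 mg/kg on 5 consecutive days from about 3 months of age per the study's methods. A half-brain was homogenised and cleared (input), tagged ribosomes were bound with an antibody against GFP (positive fraction), and the unbound remainder was kept (negative fraction). The 29 libraries came from 3 Aldh1l1-NuTRAP mice (negative and positive only) and 6 Cx3cr1-NuTRAP mice (all fractions), with whole brain tissue for 5 of the 6. Cells other than microglia that express Cx3cr1 can also recombine, and RNA that sticks to the beads and RNA of tagged ribosomes cannot be told apart. The defining markers followed the labels: the summed level of 8 astrocyte markers was 21600 to 30100 CPM (counts scaled to a common library total, with TMM factors) in the Aldh1l1 positive fractions and 3110 to 3880 in the negative fractions, and that of 8 microglial markers was 2390 to 6080 in the Cx3cr1 positive fractions and 301 to 342 in the inputs. No marker of either list was at 0 in any group. Other cells' markers stayed in the Cx3cr1 positive fractions, with 8 neuron markers at 4990 to 7270 CPM (inputs 6560 to 7060). The 8 astrocyte markers were at 2760 to 4090 there (inputs 4120 to 4610). In the Aldh1l1 positive fractions the neuron markers were at 1940 to 2470 (negative fractions 6420 to 7450). Where results below name astrocytes or microglia, they refer to RNA of these fractions, not of pure cells.

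Total counts per library ranged from 4260949 to 26857866, and the lowest count of any of the 82 genes in any library was 79.66. The 82 genes took between 1.1% and 2.403% of all counts. A pair of mice stood apart in this share. In the Cx3cr1 negative fractions mouse 155 had 2.269%, with a median of 1.434% over the 6 mice, and in the Cx3cr1 inputs the same mouse had the highest share, 1.628%, over a median of 1.256%. In the positive fraction of mouse 155, in contrast, 0 of the 82 genes were above the median of the group, and in that of mouse 194 3 were, with shares of 1.241% and 1.235%. Mouse 290 held the highest share in both Aldh1l1 fractions, 2.162% in the negative and 2.403% in the positive, with medians of 1.506% and 1.181%. Its libraries also had the lowest totals of that line, 8782235 counts in the negative and 11910851 in the positive fraction. The other Aldh1l1 libraries had 20999571 to 25137834. The lowest total of all, 4260949 in tissue of mouse 210, came with a share of 1.484% (group median 1.482%). The part of library totals in these shares was not tested. Counts of genes that rest on mice 155 and 290 are given with and without them.

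**Figure D1:**
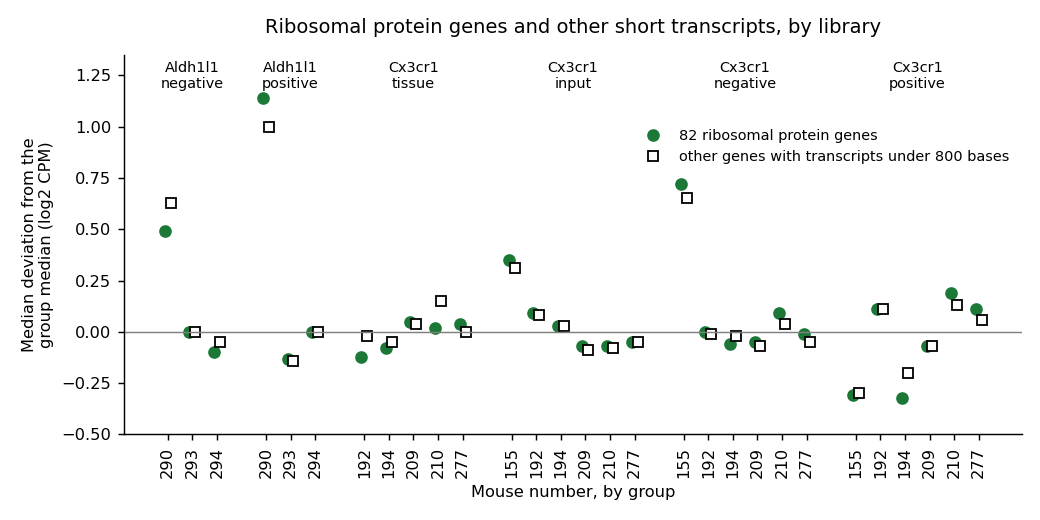
Median deviation of the 82 ribosomal protein genes (filled circles) and of other genes with transcripts under 800 bases (open squares) from the median of their group, in log2 CPM, for each of the 29 libraries by group and mouse. Both sets rise together in the positive fraction of mouse 290 (1.14 and 1.00) and the negative fraction of mouse 155 (0.72 and 0.65), and fall together in the positive fraction of mouse 155 (-0.31 and -0.30).

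In these libraries other genes with short transcripts deviated in the same direction as the 82 genes. The length of the principal GENCODE transcript was known for 81 of the 82 genes and had a median of 878 bases (345 to 5179), while the median over 13537 tested genes with a length was 3117. Among all genes in 1 library, the Spearman correlation between transcript length and the deviation of log2 CPM from the group median was -0.56 in the positive and -0.46 in the negative fraction of mouse 290, -0.54 in the negative fraction of mouse 155 and 0.37 in its positive fraction. It was -0.58 in the input of mouse 155, and only 0.17 in the positive fraction of mouse 194. Libraries not set apart reached 0.43 (positive fraction of mouse 293) and 0.41 (input of mouse 209). These are descriptions over genes of 1 library, which are not independent. Transcript length is therefore carried beside the results below, as the median of the 312 other tested genes under 800 bases, and as a refit in which a smooth trend on length was taken out of each library.

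Some of the annotated start sites carry the pyrimidine run of TOP mRNAs. RefSeq promoters were matched to 61 of the 82 genes (72 start sites, GRCm38.p6). Of these starts 29.2% were a C, and of the starts of all genes 16.3%. A C at the annotated start followed by at least 4 further C or T letters, a run of 5 or more in all, was present at 13 of the 72 starts (18.1%), and at 2.51% of 32851 starts of all genes. The windows shown hold 15 bases before the start and 15 from it, with the run in capitals, for genes of both subunits and the stalk, and for the paralogs and the tagged protein on which the results turn, which have no such run at the annotated start.
Rps6 (small subunit, chr4:86857353-86857382, minus strand): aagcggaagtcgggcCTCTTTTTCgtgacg
Rps27 (small subunit, chr3:90213634-90213663, minus strand): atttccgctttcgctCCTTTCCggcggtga
Rpl28 (large subunit, chr7:4792950-4792979, plus strand): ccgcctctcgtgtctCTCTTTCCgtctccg
Rplp2 (stalk, chr7:141447636-141447665, plus strand): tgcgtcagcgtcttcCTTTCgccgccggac
Rps27l (small subunit paralog, chr9:66946071-66946100, plus strand): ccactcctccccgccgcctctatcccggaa
Rpl22l1 (large subunit paralog, chr3:28805493-28805522, plus strand): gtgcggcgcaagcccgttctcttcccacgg
Rpl10a (tagged protein, chr17:28328456-28328485, plus strand): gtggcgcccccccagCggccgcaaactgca
In the 250 bases before to 50 after the start, the letters CCGGAAG, the core bound by ETS factors, were found on either strand in 25 of the 72 windows (34.7%), and in 8.86% of all windows. The letters AAGATGG, the core of the YY1 motif, were found in 12 of 72 (16.7%), and in 6.34% of all windows. The end of the first motif and the beginning of the second share letters, so 1 stretch can hold part of both. A match is a description of these letters only, and an annotated start can lie some bases from the start used in brain.

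Per kilobase of transcript, most genes kept a similar place in the order of levels in the 6 groups. Rplp1, a stalk protein, was the highest in 5 of the 6 groups, with a median of 505 to 632 CPM per kilobase, and Rps15 was second in all 6. Rps20, Rpl7l1, Rps27l and Rps19bp1 were among the lowest, with 18.9, 19.2 and 18.5 CPM per kilobase in the Cx3cr1 input for the first 3, and Rps27l had 36.4 in the Cx3cr1 positive fraction. Rpl10a had the widest range of places: it was in place 47 in the Aldh1l1 negative fraction (169 CPM per kilobase), place 1 in the Aldh1l1 positive fraction (891), and places 56, 59, 37 and 57 in the Cx3cr1 input, negative, positive and tissue groups. Between its highest and lowest place lay 58 places, and the next widest range was that of Rpl17, with 32.

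Rpl10a, the endogenous gene of the tagged protein (chr17:28328471-28331033, plus strand, GRCm38), had the largest difference of the 82 genes between the fractions of the astrocyte line. Its level in the negative fraction of mice 290, 293 and 294 was 163.7, 123.1 and 111.4 CPM, and in the positive fraction 649.8, 656.6 and 475.5 CPM. Every positive fraction was far above every negative one. The fold change was 4.33 (log2 2.12, SE 0.21, n = 3 and 3, edgeR adjusted p = 0.000249). In such bulk fractions fewer cells of a type and less RNA per cell cannot be told apart.

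In the microglia line the same gene rose less. The Cx3cr1 inputs had 78.9 to 115 CPM (median 89.4, n = 6), the negative fractions 85.7 to 157 (median 94.4), the positive fractions 129 to 168 (median 154) and tissue 89.3 to 103 (median 98.8, n = 5). The positive fractions were all above the inputs and all above tissue, but the negative fraction of mouse 155, at 157 CPM, lay among them. The log2 fold change of the positive fraction was 0.71 against input (SE 0.10, edgeR adjusted p = 4.13e-05), 0.53 against the negative fraction (SE 0.13, edgeR adjusted p = 0.00763) and 0.58 against tissue (SE 0.08, edgeR adjusted p = 8.33e-05), comparisons that share the positive libraries. Between the positive fractions of both lines Rpl10a was 3.65 times higher in astrocytes (log2 1.87, SE 0.13, edgeR adjusted p = 5.37e-07), and between the negative fractions the difference was 0.32 on the log2 scale (SE 0.19, edgeR adjusted p = 0.496).

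The ratio of positive to negative fraction therefore differed between the lines, by 1.55 on the log2 scale for Rpl10a (SE 0.24, edgeR adjusted p = 2.32e-05, 4 groups in 1 fit). The positive fraction stayed called higher for Rpl10a in every alternative fit of these comparisons. Without the length trend the log2 fold change was 1.46 in the astrocyte line and 0.37 against input in the microglia line, and without mouse 290 it was 2.19 in the astrocyte line. Against input it was lowest within mouse 155 (0.16) and 0.63 to 1.09 within the other mice. Against the negative fraction Rpl10a was lower in the positive fraction of mouse 155 (129.3 and 156.9 CPM, log2 ratio -0.28) and higher in the other 5 mice (0.68 to 0.83). The L10a sequence of the tag is read from the construct in recombined cells, and reads from it may have been counted on the Rpl10a row, so that the endogenous mRNA and that of the construct cannot be told apart here.

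**Figure D2:**
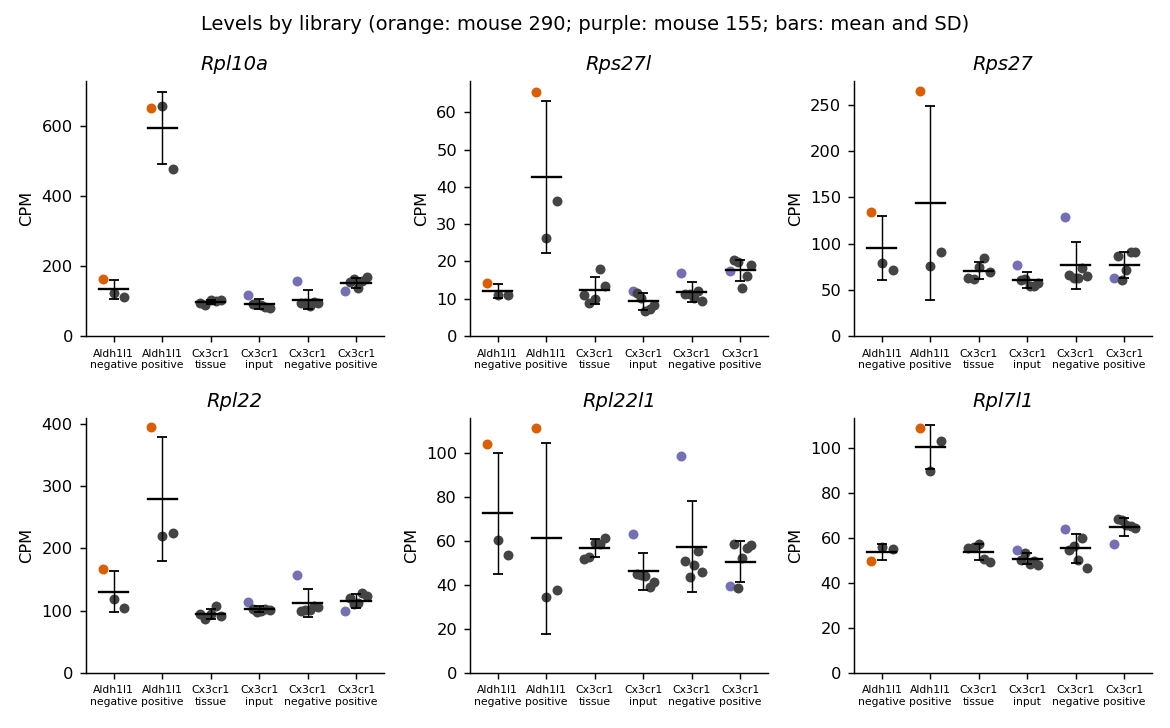
Level of Rpl10a, Rps27l, Rps27, Rpl22, Rpl22l1 and Rpl7l1 in CPM (TMM scaled) in each library by group, with horizontal lines for the mean and error bars for the SD (n = 3 for the Aldh1l1 groups, 5 for tissue and 6 for the other Cx3cr1 groups). Rpl10a lies between 476 and 657 CPM in the Aldh1l1 positive fraction and at 168 CPM or below in every other library.

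Rps27l, whose product can take the place of RPS27 in the small subunit and is a known p53 target, had the next largest difference in the astrocyte line and the largest against input in the microglia line. Its level in the Aldh1l1 negative fractions was 14.11, 11.0 and 10.92 CPM (mice 290, 293 and 294), and in the positive fractions 65.47, 26.29 and 36.34 CPM. The fractions did not overlap, though mouse 290 was well above the other two in the positive fraction. The fold change was 3.43 (log2 1.78, SE 0.33, edgeR adjusted p = 0.00366), and the log2 value was 1.44 without mouse 290 and 0.80 without the length trend. In the Cx3cr1 line the inputs had 6.62 to 12.1 CPM (median 9.22), the negative fractions 9.32 to 16.9 (median 11.2), tissue 8.9 to 17.8 (median 11.0) and the positive fractions 12.8 to 20.5 (median 18.2). The positive fractions lay above every input, and overlapped with the negative fractions and with tissue. Against input Rps27l was 1.87 times higher (log2 0.90, SE 0.16, edgeR adjusted p = 0.000452). Against the negative fraction the log2 value was 0.56 (edgeR adjusted p = 0.0114), a call that was lost at a similar value without mouse 192 (0.52, adjusted p = 0.0611), 194 (0.51, adjusted p = 0.053) or 277 (0.47, adjusted p = 0.0568). Against tissue it was 0.52 (edgeR adjusted p = 0.0245), and the call was lost without mouse 192 (0.50, adjusted p = 0.088) or 194 (0.42, adjusted p = 0.0859) and without the length trend (0.19, adjusted p = 0.399). The ratio of positive to negative fraction differed between the lines by 1.18 (SE 0.32, edgeR adjusted p = 0.00485), a difference of 0.37 (edgeR adjusted p = 0.181) once the length trend was removed.

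The coding sequences of Rps27l (chr9:66946118-66949509, plus strand) and Rps27 (chr3:90212667-90213648, minus strand) are shown because both genes are measured side by side. They have 252 bases each, 192 of them identical (76.2%), with 60 differing bases, in capitals, spread over 53 of 84 codons (GENCODE M21, GRCm38).
Rps27l: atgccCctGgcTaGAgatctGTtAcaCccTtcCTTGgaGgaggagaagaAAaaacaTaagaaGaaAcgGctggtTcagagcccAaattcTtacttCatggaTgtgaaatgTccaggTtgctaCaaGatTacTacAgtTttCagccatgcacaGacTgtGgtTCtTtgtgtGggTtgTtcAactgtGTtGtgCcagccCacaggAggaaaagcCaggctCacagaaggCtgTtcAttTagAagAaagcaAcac
Rps27: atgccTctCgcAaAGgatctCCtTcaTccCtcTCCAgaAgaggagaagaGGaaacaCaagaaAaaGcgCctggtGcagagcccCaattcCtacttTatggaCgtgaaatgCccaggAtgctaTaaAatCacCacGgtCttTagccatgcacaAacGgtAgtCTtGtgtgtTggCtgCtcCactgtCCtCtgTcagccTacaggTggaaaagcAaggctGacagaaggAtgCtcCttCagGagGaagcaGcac
The longest stretch that both share without a difference is 11 bases, and the principal transcripts have 499 and 345 bases. The ratios of counts below were not corrected for this difference in length. The count ratio of Rps27l to Rps27 rose from 0.105 to 0.247 in mouse 290, from 0.14 to 0.348 in mouse 293 and from 0.154 to 0.4 in mouse 294. The mean log2 difference was 1.31 (SD 0.08, 3 of 3 mice), and the exact sign-flip test over mice gave p = 0.25, the smallest that 3 mice allow. In the Cx3cr1 line the ratio was 0.122 to 0.191 in the inputs, 0.132 to 0.181 in the negative and 0.175 to 0.333 in the positive fractions, and the positive value was above that of the same mouse in 6 of 6 against input (mean log2 difference 0.60, SD 0.26) and 6 of 6 against negative (0.53, SD 0.39). Each of these had an exact sign-flip p = 0.0312, the smallest for 6 mice, and p = 0.179 after adjustment over the 40 paralog tests. Against tissue (0.134 to 0.212) it was higher in 4 of 5 mice (mean log2 difference 0.38, SD 0.54, exact sign-flip p = 0.188), and in mouse 210 it was 0.212 in tissue and 0.175 in the positive fraction. Rps27 itself was not called in the astrocyte line (log2 0.54, SE 0.49, edgeR adjusted p = 0.377) and was 1.26 times higher in the Cx3cr1 positive fraction than in input (log2 0.33, edgeR adjusted p = 0.0417). That call was lost without mouse 192 (0.33), 209 (0.31), 210 (0.26) or 277 (0.26) and with the mouse as a block (0.32, edgeR adjusted p = 0.102), and without the length trend the value was -0.15 (edgeR adjusted p = 0.0261). After removal of the length trend the log2 fold changes of Rps27l and Rps27 were 0.80 and -0.63 in the astrocyte line, and 0.53 and -0.15 in the Cx3cr1 positive fraction against input.

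**Figure D3:**
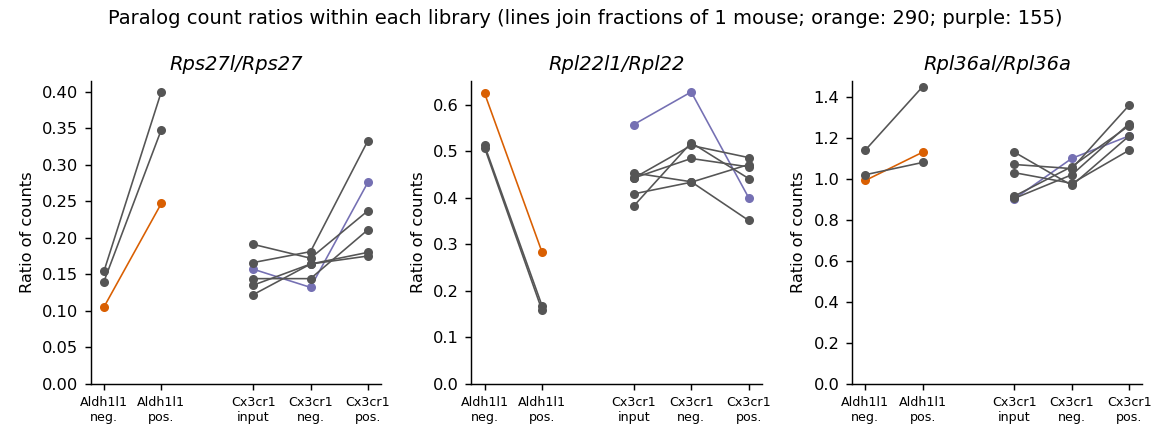
Ratio of the counts of a paralog to those of its partner within each library, for Rps27l/Rps27, Rpl22l1/Rpl22 and Rpl36al/Rpl36a, with lines joining the fractions of 1 mouse (orange, mouse 290, and purple, mouse 155). The first ratio lies higher in the positive fraction of all 9 mice than in their negative fraction, the second falls in the 3 Aldh1l1 mice from at least 0.507 to at most 0.283, and the third is above input in the 6 Cx3cr1 positive fractions.

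Rpl22, an RNA-binding protein of the large subunit known from T cell development, rose in the astrocyte line, while its paralog was not called. Its level in the Aldh1l1 negative fractions was 167.1, 119.1 and 104.6 CPM (mice 290, 293 and 294) and in the positive fractions 395.1, 219.6 and 224.7 CPM, without overlap. The fold change was 2.07 (log2 1.05, SE 0.28, edgeR adjusted p = 0.0166), a call lost at a similar value without mouse 293 (1.15, adjusted p = 0.0729) or 294 (1.07, adjusted p = 0.0763), and with total counts in place of TMM (0.70, adjusted p = 0.0551). Rpl22l1 had 104.3, 60.35 and 53.52 CPM in the negative and 111.6, 34.65 and 37.78 CPM in the positive fractions. It was above its negative fraction in mouse 290 and below it in the other two mice, and its log2 fold change was -0.30 (SE 0.48, edgeR adjusted p = 0.615). With the mouse as a block it was lower (log2 -0.45, edgeR adjusted p = 0.0228).

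The ratio of Rpl22l1 to Rpl22 fell in every Aldh1l1 mouse, from 0.624 to 0.283 (mouse 290), from 0.507 to 0.158 (mouse 293) and from 0.512 to 0.168 (mouse 294). The mean log2 difference was -1.48 (SD 0.29), with an exact sign-flip p = 0.25, the smallest possible. In the Cx3cr1 positive fractions the ratio was 0.351 to 0.486, above all 3 values of the Aldh1l1 positive fraction. The log2 difference between the lines was -1.15 (exact permutation p = 0.0119, the smallest for 3 against 6, and 0.179 adjusted over 40). Tissue had ratios of 0.547 to 0.673, and the ratio was lower than in tissue of the same mouse in 5 of 5 Cx3cr1 positive fractions (log2 -0.45, without overlap) and 5 of 5 inputs (log2 -0.50), each with an exact sign-flip p = 0.0625, the smallest for 5 mice. The coding sequences are 72.7% identical over 363 aligned bases, with 26 bases as the longest shared stretch. The transcripts of Rpl22l1 and Rpl22 differ in length, with 552 and 2051 bases, and after removal of the length trend their log2 fold changes in the astrocyte line were -1.28 and 0.82.

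Among the other paralog pairs, Rpl36al over Rpl36a lay at 0.903 to 1.13 in the Cx3cr1 inputs, 0.968 to 1.1 in the negative and 1.14 to 1.36 in the positive fractions, which overlapped with neither. Tissue ran from 0.891 to 1.3 and overlapped with the positive fractions, which were higher in 4 of 5 mice. The ratio was higher in 6 of 6 mice against input (log2 0.33, SD 0.17) and against negative (0.27, SD 0.08), each with an exact sign-flip p = 0.0312 and p = 0.179 adjusted. Rpl36al was itself 1.48 times higher in the positive fraction than in input (edgeR adjusted p = 0.00214). Rpl7l1 over Rpl7 rose in 3 of 3 Aldh1l1 mice (log2 0.35, SD 0.02) and stayed within overlapping ranges in the Cx3cr1 groups (0.187 to 0.251 in the positive fractions, 0.211 to 0.247 in the inputs). The row Rps4y2 over Rps4x was higher in 6 of 6 Cx3cr1 positive fractions than in input (log2 0.34, SD 0.14), with ratios of 0.0875 to 0.107 in the inputs and 0.106 to 0.148 in the positive fractions. No paralog ratio had an adjusted p under 0.05. In these pairs too the transcripts differ in length, with 1276 bases for Rpl36al and 483 for Rpl36a, and 2606 for Rpl7l1 and 1163 for Rpl7. Without the length trend Rpl36al was at 0.33 and Rpl36a at -0.18 against input (log2), and Rpl7l1 at 0.76 and Rpl7 at 0.00 in the astrocyte line.

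In the astrocyte line, 7 of the 82 genes were higher in the positive than in the negative fraction and 0 were lower, where 26.8% of all 13343 tested genes were higher and 24.8% lower. The 7 genes were Rpl10a, Rps27l, Rpl22, Rpl7a (log2 0.96), Rps19bp1 (0.91), Rpl7l1 (0.85) and Rpl28 (0.78). Rpl7l1 had 49.62, 56.02 and 55.16 CPM in the negative and 108.7, 89.63 and 103.1 CPM in the positive fractions, without overlap. The median log2 fold change of the 82 genes was 0.24, over all genes it was 0.04, and over other short transcripts it was 0.74. The large subunit had a median of 0.34 and 5 calls, the small subunit 0.18 and 2 calls, and the stalk 0.24 and 0 calls.

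The counts of higher and lower genes depended on mouse 290. Within it the median ratio of the 82 genes was 0.64 on the log2 scale, against -0.07 in mouse 293 and 0.15 in mouse 294. Without mouse 290, 17 genes were higher, among them all 7, and 23 were lower (34.6% and 34.3% of all genes), and the median of the 82 was -0.05 while that of other short transcripts was 0.55. The lower genes were led by Rpl17 (log2 -1.10), Rpl35a (-0.76), Rpl22l1 (-0.73) and Rpl13a (-0.60, each with an edgeR adjusted p of at most 0.000312). Without mouse 293, 4 were higher, and without mouse 294, 2, which were Rpl10a and Rps27l, where 14.8% of all genes were higher in each fit. The calls of Rpl7a and Rpl28 were lost without either mouse (log2 0.90 to 1.19), and those of Rpl7l1 (0.86) and Rps19bp1 (0.87) without mouse 294. With the mouse as a block, 27 genes were higher and 7 lower (37.0% and 33.8% of all genes), the lower ones being Rpl35a, Rpl13a, Rpl22l1, Rps24, Rps12, Rpl10 and Rplp1. In these libraries, choroid plexus markers moved with the fractions as well (3730 to 4600 CPM summed over 4 genes in the positive and 473 to 618 in the negative fractions), and their part in the result was not tested.

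With the length trend removed, 4 genes were higher (Rpl10a, Rps27l, Rpl22 and Rpl7l1) and 39 were lower (28.5% and 27.9% of all genes), and the median of the 82 became -0.47, with -0.07 for other short transcripts. The lowest were Rpl35a (log2 -1.43, edgeR adjusted p = 2.9e-05), a large subunit protein, and Rpl22l1 (-1.28, edgeR adjusted p = 0.000137). The median of the 82 genes thus changed sign with removal of the length trend and without mouse 290, and the 4 genes were higher in both.

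**Figure D4:**
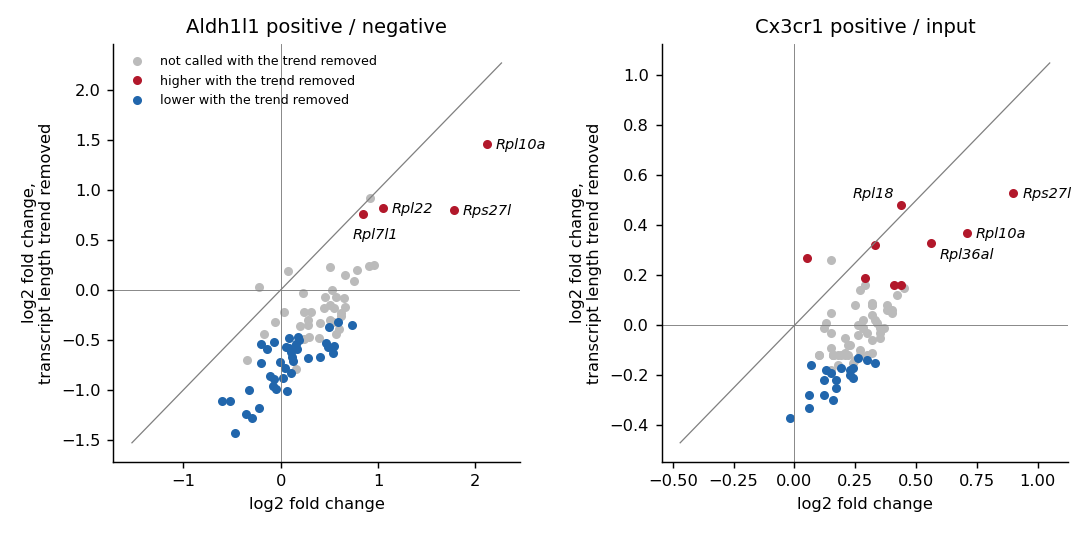
Log2 fold change of each ribosomal protein gene as counted (x axis) and with the transcript length trend of each library removed (y axis), for the Aldh1l1 positive against negative fraction and the Cx3cr1 positive fraction against input, with the diagonal of equal values. Nearly all genes fall below the diagonal, and 4 genes are called higher after removal in the first panel and 9 in the second.

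In the microglia line, 31 of the 82 genes were higher in the positive fraction than in input and 0 were lower, where 23.2% of 13862 genes were higher and 25.6% lower. The changes were small: the median was 0.25 on the log2 scale (0.00 over all genes, 0.38 over other short transcripts), and the values ran from -0.02 to 0.90, with 81 of 82 above 0. Rps27l, Rpl10a, Rps4y2 (0.62), Rpl36al (0.56) and Rplp2 (0.45), a stalk protein, had the highest values. Of the stalk, Rplp0 (0.10) and Rplp1 (0.17) were not called. Rpl5 (0.29, edgeR adjusted p = 0.00701) and Rpl11 (0.38, edgeR adjusted p = 0.00725), which with 5S RNA form the particle that binds MDM2, were both higher, as was Rps27a (0.34, edgeR adjusted p = 0.0204), which is made as a fusion with ubiquitin. The call of Rps27a was lost with the mouse as a block (0.34, edgeR adjusted p = 0.0546) and without mouse 192 (0.35), 209 (0.31), 210 (0.29) or 277 (0.29), and without the length trend Rps27a was at 0.01 and Rpl11 at 0.06. That of Rplp2 was lost with the block (0.44, edgeR adjusted p = 0.0504) and without mouse 210 (0.38) or 277 (0.37), with all groups in one fit (0.46, edgeR adjusted p = 0.126) and without the length trend (0.15, edgeR adjusted p = 0.139). Rps6, the target of the S6 kinases (0.21, edgeR adjusted p = 0.112), and Rpsa, also a laminin receptor (0.12, edgeR adjusted p = 0.515), were not called.

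The count was largest without mouse 155. Within that mouse the median ratio of the 82 genes was -0.28 on the log2 scale, while it was 0.00 in mouse 194 and 0.38 to 0.65 in the other 4. Without mouse 155, 68 genes were higher (26.1% of all genes), among them all 31, with a median of 0.42. Without each of the other mice the count was 15 to 47, lowest without mouse 277 and 17 without mouse 210, where 18.2% to 22.9% of all genes were higher. With the mouse as a block 20 were higher (19.0% of all genes). After removal of the length trend 9 were higher and 19 lower (22.2% and 18.8% of all genes), and the median was -0.06. Those 9 were Rpl10a, Rps27l, Rpl18, Rpl36al, Rpl7l1, Rpl23, Rpl5, Rpl7 and Rps15a. The summed level of 3 nuclear RNAs (Malat1, Neat1 and Meg3) was 12400 CPM in the positive fraction of mouse 155 and 4170 to 12500 over the 6 mice, against 4040 to 5130 in the inputs, and its part in the result was not tested.

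Against the other references the microglial positive fraction differed in fewer genes. Against the negative fraction 2 genes were higher, Rpl10a and Rps27l, and 0 lower, where 12.8% of all genes were higher and 11.6% lower, and the median was -0.01. With the mouse as a block the same count was 2, where 9.28% of all genes were higher and 7.98% lower. Without mouse 155, 25 were higher (16.4% of all genes) and the median was 0.22. Other short transcripts had a median of 0.06, and the refit for length gave 3 higher and 7 lower (14.9% and 10.6% of all genes). Against tissue 14 genes were higher and 1, Rpl17, was lower, where 23.1% and 27.6% of all genes were, with a median of 0.13 (0.32 for other short transcripts). Besides Rpl10a and Rps27l, the highest were Rplp2 (log2 0.45, edgeR adjusted p = 0.0158), Rpl18 (0.38, edgeR adjusted p = 0.0108) and Rpl36al (0.37, edgeR adjusted p = 0.0243), whose call was lost without mouse 192 (0.34) or 209 (0.39). Without mouse 155, 28 were higher and 0 lower (24.4% and 25.3% of all genes), and the call of Rpl17 (-0.26, edgeR adjusted p = 0.0415) was also lost without mouse 192, 194, 209 or 277 (values of -0.17 to -0.26) and with the mouse as a block (-0.23, edgeR adjusted p = 0.0881). Once length was accounted for 3 were higher, Rpl10a, Rpl18 and Rpl7l1, and 33 lower (24.5% and 23.0% of all genes).

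Between the negative fraction and the input, which both hold RNA of mostly untagged cells, the fold changes of the 82 genes were small and close to one another. The fold change was above 0 for all 82, with a median of 0.30 on the log2 scale and an SD over genes of 0.08, while all genes had a median of 0.01 and other short transcripts one of 0.33. Only Rpl23 (log2 0.30, edgeR adjusted p = 0.0439) and Rps7 (0.24, edgeR adjusted p = 0.0466) were called, where 1.36% of all genes were higher and 4.33% lower. Rpl23 lay at 140.3 to 170.6 CPM in the inputs and 166.1 to 229.7 in the negative fractions. Both calls were lost without mouse 192, 194, 209, 210 or 277 (0 members called in each, where at most 0.0216% of all genes were), at log2 values of 0.28 to 0.33 for Rpl23 and 0.22 to 0.26 for Rps7, while without mouse 155 69 were called higher (12.8% of all genes), with a median of 0.21. With the mouse as a block 75 were higher (18.5% of all genes). Without the length trend the median was 0.00 and 0 were called (0.649% of all genes were higher and 1.83% lower), and Rps7 stood at 0.00.

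Input was compared with whole tissue of the same line. Of the 82 genes 8 were lower in input and 0 higher, where 14.6% of all genes were lower and 15.6% higher, and the median was -0.09 (-0.01 for other short transcripts). Within single mice the median ratio was 0.06 in mouse 192, -0.04 in mouse 194 and -0.29 to -0.31 in mice 209, 210 and 277. Among the lower genes were Rpl17 (-0.29, edgeR adjusted p = 0.00999), Rps4y2 (-0.29), Rpl9 (-0.23), Rpsa (-0.23), Rps6 (-0.21), Rpl15 (-0.20) and Rpl3 (-0.18). Rpl17, a protein at the exit of the peptide tunnel, had 162 to 199 CPM in the inputs and 200 to 247 in tissue, without overlap. Without mouse 209 or 277 0 of the 82 were called (19.0% and 22.2% of all genes were), without mouse 194 3 were lower (8.78% of all genes), and without mouse 155, which has no tissue library, 27 were lower, where 2056 of 13673 genes (15%) were. Removal of the length trend gave 20 lower and 0 higher (18.4% and 17.8% of all genes). A block for the mouse gave 9 lower, where 9.85% of all genes were. Summed oligodendrocyte markers were 4300 to 4780 CPM in the inputs and 6030 to 8430 in tissue, and endothelial markers 56.9 to 75.6 and 99.9 to 194, and their part in the result was not tested.

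**Figure D5:**
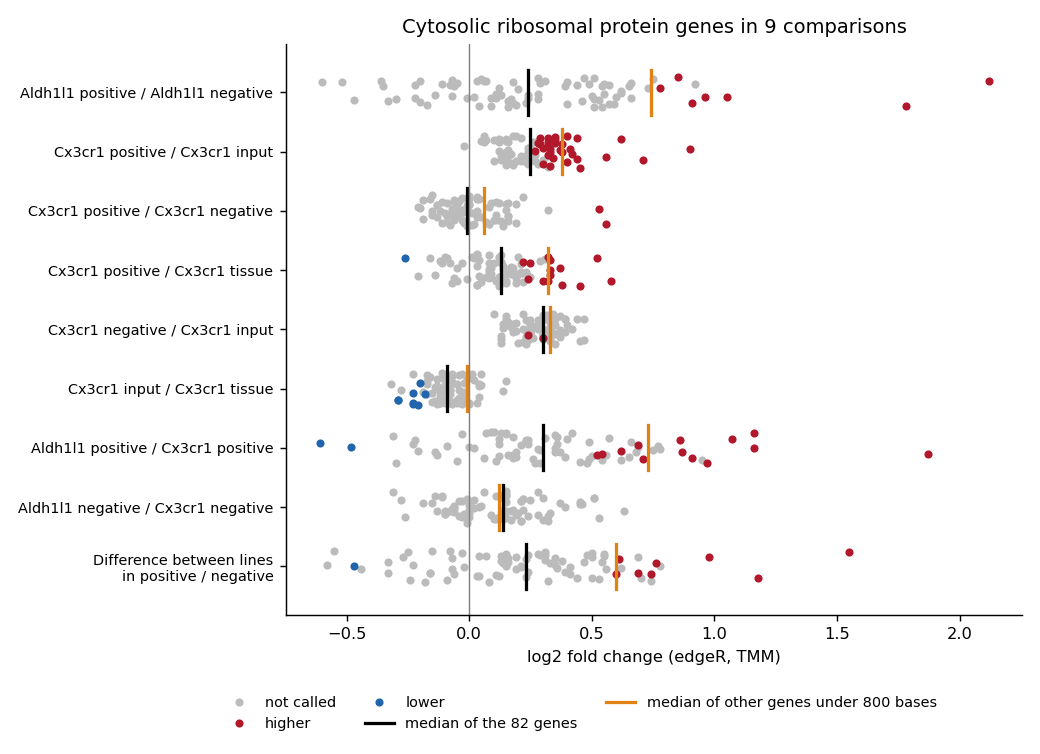
Log2 fold change of each of the 82 ribosomal protein genes (points, coloured by the edgeR call at an adjusted p of 0.05) in 9 comparisons, with the median of the 82 (black bar) and of other genes under 800 bases (orange bar). Rpl10a stands at the right edge in the comparisons with the Aldh1l1 positive fraction (2.12, 1.87 and 1.55), and the Cx3cr1 negative against input values form a narrow group above 0.

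Between the positive fractions of the lines, 13 genes were higher in astrocytes and 2 were lower, where 30.6% and 33.1% of 13692 genes were. The highest were Rpl10a, Rpl22 (log2 1.16, SE 0.17, edgeR adjusted p = 0.000157), Rps27l (1.16, SE 0.24, edgeR adjusted p = 0.00167), Rpl41 (1.07, SE 0.41, edgeR adjusted p = 0.0405) and Rpl36 (0.97, SE 0.32, edgeR adjusted p = 0.0217). The lower genes were Rpl17 (-0.61, SE 0.20, edgeR adjusted p = 0.0201) and Rpl10 (-0.48, SE 0.16, edgeR adjusted p = 0.0217), a protein of the large subunit that is added late in its assembly. The median was 0.30, with -0.08 over all genes and 0.73 over other short transcripts. Rpl10 lay at 118 to 173 CPM in the Aldh1l1 and 149 to 228 in the Cx3cr1 positive fractions, and Rpl17 at 91.1 to 189 and 165 to 226. Both pairs of ranges overlapped. Summed markers differed between these fractions too, with neuron markers at 1940 to 2470 CPM in the Aldh1l1 and 4990 to 7270 in the Cx3cr1 positive fractions. Choroid plexus markers were at 3730 to 4600 and 216 to 984, and the 3 nuclear RNAs at 1950 to 3380 and 4170 to 12500. Oligodendrocyte, endothelial and erythrocyte markers overlapped. The part of these differences in the result was not tested.

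These counts also changed without mouse 290. Without it 6 were higher (Rpl10a, Rpl22, Rps27l, Rpl23a, Rpl7l1 and Rps19bp1) and 16 lower (29.3% and 31.1% of all genes), the median was -0.14, and Rpl41, whose level in the positive fraction of mouse 290 was 1250 CPM and 260 and 272 in the other two, stood at -0.07. Without mouse 293, 31 were higher and 0 lower (29.4% and 30.3% of all genes), without mouse 294, 24 and 0 (28.7% and 28.4%), and without mouse 210, 22 and 0 (32.7% and 30.2%), so that the lower calls of Rpl17 and Rpl10 were lost in each of these. With the length trend removed 4 were higher (Rpl10a, Rpl22, Rpl18 and Rpl7l1) and 41 lower (32.0% and 31.6% of all genes). Between the negative fractions of the lines none of the 82 genes was called by edgeR (0 higher, 0 lower, where 0.125% of all genes were called in each direction), and the median was 0.14, or -0.12 without mouse 290.

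The ratio of positive to negative fraction differed between the lines in 9 genes, where 25.5% of 13998 genes were higher and 29.9% lower in astrocytes. Besides Rpl10a and Rps27l, the ratio was higher in astrocytes for Rpl22 (0.98 on the log2 scale, edgeR adjusted p = 0.00359), Rpl7a (0.76), Rps19bp1 (0.74), Rpl28 (0.69), Rpl31 (0.61) and Rpl7l1 (0.60, edgeR adjusted p = 0.0016), and it was lower for Rpl10 (-0.47, edgeR adjusted p = 0.0299). Without mouse 290, 5 of the 8 were still called (Rpl10a, Rpl22, Rps27l, Rpl7l1 and Rps19bp1) and 4 genes were lower (26.4% and 28.6% of all genes), and without mouse 155 6 were higher and 2 lower (24.7% and 28.1%). Without both mice 5 were higher and 20 lower (27.6% and 29.2% of all genes), with a median of -0.26 in place of 0.23 (0.60 for other short transcripts with all mice). The lower call of Rpl10 was lost without any 1 of mice 192, 194, 209, 210, 277, 293 and 294 (values of -0.36 to -0.48). With the mouse as a block 7 were higher and 2 lower (27.1% and 30.9% of all genes). With the length trend removed 3 were higher, Rpl10a (1.04), Rpl22 (0.87) and Rpl7l1 (0.60), and 35 were lower (27.5% and 29.8% of all genes).

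Other lists of genes for translation were counted in the same comparisons, to be read against 26.8% of all genes higher and 24.8% lower in the Aldh1l1 fractions, 23.2% and 25.6% in the Cx3cr1 positive fraction against input, and 30.6% and 33.1% between the positive fractions. Of 76 mitochondrial ribosomal protein genes, whose products form the separate ribosome of the organelle, 28 were higher and 0 lower in the Aldh1l1 positive against negative fraction (median 0.64), and 41 and 0 in the Cx3cr1 positive fraction against input (median 0.26). Between the positive fractions 43 of them were higher in astrocytes and 0 lower. Of 59 initiation and elongation factors, 13 were higher and 4 lower in astrocytes, 16 and 5 in microglia against input, and 19 and 9 in astrocytes against microglia. Of 18 other RNAs known to carry a TOP motif (the noncoding Gas5 among them), 0 were higher and 1 lower in the astrocyte line, 4 and 0 in the microglia line, and 1 and 3 between the positive fractions. The lists overlap, as several of these RNAs are also counted among the factors and Npm1 also among the assembly genes. Of 24 ribosome assembly genes, 1 was higher and 1 lower in the astrocyte line, 13 and 0 in the microglia line, and 2 and 8 between the positive fractions.

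These counts moved with the mice and with transcript length. Without mouse 290 (34.6% of all genes higher and 34.3% lower in the astrocyte line), 51 mitochondrial ribosomal protein genes were higher and 1 lower, 27 and 11 factors (of 60 then tested), 2 and 5 TOP RNAs, and 3 and 3 assembly genes. Without mouse 155 (26.1% and 23.3% in the microglia line), the counts were 65 and 0 mitochondrial genes, 24 and 5 factors, 9 and 0 TOP RNAs, and 15 and 0 assembly genes. Between the positive fractions without mouse 290 (29.3% and 31.1%), they were 31 and 1, 15 and 8, 1 and 6, and 2 and 9 in the same order of lists, and without mouse 155 (29.1% and 30.4%) 38 and 0, 16 and 7, 1 and 3, and 1 and 6. After removal of the length trend 19 mitochondrial genes were higher and 3 lower in the astrocyte line (28.5% and 27.9%), 19 and 1 in the microglia line (22.2% and 18.8%), and 34 and 5 between the positive fractions (32.0% and 31.6%). The other lists then had 13 and 10 factors, 0 and 5 TOP RNAs (of 17 with a length), and 2 and 4 assembly genes in the astrocyte line, and 14 and 8, 1 and 3, and 11 and 0 in the microglia line. Between the positive fractions they had 19 and 11, 1 and 6, and 2 and 8.

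Of ribosomal proteins under other symbols, Fau (log2 0.57) and Gnb2l1 (0.33, the gene of RACK1) were higher in the Cx3cr1 positive fraction than in input, and neither was called in the astrocyte line. Without mouse 155 both were higher (0.73 and 0.47), and without the length trend Fau was at 0.24 (edgeR adjusted p = 0.00362) and Gnb2l1 at 0.14 (edgeR adjusted p = 0.0638).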

How the data were processed

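Per the study's methods, the authors isolated RNA from the fractions or from brain tissue, made strand-specific libraries, trimmed and aligned the reads to mm10 in Strand NGS, keeping reads in the library's direction. Per the file headers, the gene rows are RefSeq genes. The deposited raw values are expected counts: 82.6% of the values above 0 are not whole (tolerance 1e-06), and they were rounded before the tests. The other deposited columns hold log2 values that the authors normalised with DESeq, and were not used.

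Genes with more than 20 counts in all libraries of one of the groups compared were tested with edgeR 4.0.16 (quasi-likelihood, robust, TMM factors, two-sided, R 4.3.3), adjusted by Benjamini-Hochberg over all tested genes, with a threshold of 0.05. The difference between the lines was an interaction term over 4 groups. Tests were run on simulated counts with known changes first. The simulated libraries were independent, with a fixed dispersion, and held no mouse effect, length trend or library set apart. They therefore say nothing on how the calls depend on mice or transcript length. The members, the gene lists and the rule for named genes (the tagged gene, paralog pairs, stalk and other special proteins, and up to 5 called members in each direction of a comparison) were chosen with earlier results of these data known. The removal of a lowess trend of log2 CPM on transcript length (GENCODE M21), the limit of 800 bases and leaving out mice 155 and 290 together were chosen after seeing the data. Ratios of paralogs used a pseudocount of 0.5 and exact tests.

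Libraries with the same animal number came from the same mouse, which pairs them. The deviations from the group means of paired libraries correlated at 0.48 to 0.69 between the Aldh1l1 fractions, at 0.06 to 0.64 between Cx3cr1 negative fraction and input, and at -0.26 to 0.19 between Cx3cr1 positive fraction and input. Mice are separate animals. The sex of each mouse was not used. The 257 pseudogene rows of 59 members held at most 1.888% of a member's counts. Alternatives were RLE factors, total counts, DESeq2 1.42.0, no count filter, at least 100 counts, all 6 groups in one fit, pseudogene rows added, the mouse as a block and leaving out each mouse. Values of some single genes are not reported here.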

Additional observations from a re-analysis of the deposited data

Results flagged for a closer look

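In the Cx3cr1 inputs the library of mouse 155 lay apart from the other 5 by Dixon's criterion for Rpl10a (115 CPM), Rpl22 (113 CPM) and Rpl22l1 (63.1 CPM). In the Cx3cr1 negative fractions the same mouse lay apart for the share of counts on the 82 genes (2.269%), Rpl10a (157 CPM), Rps27l (16.9 CPM), Rpl22 (158 CPM) and Rpl22l1 (99.0 CPM). Over all 82 genes it lay apart for 25 in the inputs and 72 in the negative fractions. The same share over all genes is not given, so these counts are not read as a trait of the 82. Other short transcripts of mouse 155 also lay above their group median, by 0.31 in the input and 0.65 in the negative fraction (log2 CPM). The criterion marks some groups by chance, and genes of 1 library are not independent.

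The log2 ratio of positive to negative fraction differed between the lines by the interaction test. It was higher in astrocytes by 1.55 for Rpl10a, 1.18 for Rps27l, 0.98 for Rpl22, 0.76 for Rpl7a, 0.74 for Rps19bp1, 0.69 for Rpl28, 0.61 for Rpl31 and 0.60 for Rpl7l1. For Rpl10 the difference was -0.47. Of these 9 calls, 2 were kept in every alternative, Rpl10a and Rpl22.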

How the results depend on the processing

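Calls are given as genes higher and lower among the 82, with the value first reported, then the alternatives. Shares of all genes, where given, stand with the results above. For RLE factors, total counts, DESeq2, the other filters and all groups in one fit, that share is not given. These counts therefore do not separate a change of the 82 genes from one over all genes. For the Aldh1l1 positive against negative fraction, 7 higher became 4 with total counts, 23 with all groups in one fit, 27 with the replicate block, 4 without the length trend and 2 to 17 with 1 mouse left out. The 0 lower became 3, 1, 7, 39 and 0 to 23, and the median of 0.24 became -0.47 without the length trend. For the Cx3cr1 positive fraction against input, 31 higher became 48 with at least 100 counts, 20 with all groups in one fit, 20 with the block, 9 without the length trend and 15 to 68 with 1 mouse left out, 0 lower became 19 without the length trend, and the median of 0.25 became -0.06. Against the negative fraction, 2 higher became 4 with at least 100 counts, 4 with all groups and 1 to 25 with 1 mouse left out, and 0 lower became 7 without the length trend. Against tissue, 14 higher became 8 with all groups, 3 without the length trend and 10 to 28 with 1 mouse left out. The 1 lower became 0 with RLE factors, total counts, no filter, at least 100 counts, all groups and the block, 33 without the length trend and 0 to 1 with 1 mouse left out, and the median of 0.13 became -0.16 without the length trend. For the Cx3cr1 negative fraction against input, 2 higher became 8 with DESeq2, 0 without a filter, 4 with at least 100 counts, 0 with all groups, 75 with the block, 0 without the length trend and 0 to 69 with 1 mouse left out. Its median of 0.30 became 0.00 without the length trend, where Rps7 was at 0.00 and Rpl10a at -0.10. For input against tissue, 8 lower became 5 with total counts, 3 without a filter, 0 with all groups, 20 without the length trend and 0 to 27 with 1 mouse left out, and 0 higher became 0 to 1. Between the positive fractions, 13 higher became 20 with RLE factors, 4 with total counts, 20 with DESeq2, 43 with all groups, 4 without the length trend and 6 to 31 with 1 mouse left out. The 2 lower became 1, 6, 41 (RLE factors, total counts, length trend) and 0 to 16, and the median of 0.30 became -0.32 without the length trend. There Rpl36 was at -0.10, and Rpl41 was at -0.07 without mouse 290 and at up to 1.42 with another mouse left out. Between the negative fractions the median of 0.14 was -0.12 to 0.29 with 1 mouse left out, and Rps27l was at 0.01 with all groups and, with 1 mouse left out, at -0.15 to 0.09, with 0.09 without mouse 155, 0.03 without mouse 293 and 0.04 without mouse 294. For the difference between the lines, 8 higher became 3 with total counts, 13 with all groups, 3 without the length trend, 5 without both mice 155 and 290 and 5 to 9 with 1 mouse left out. The 1 lower became 0 with RLE factors, 4 with total counts, 0 without a filter, 2 with all groups, 2 with the block, 35 without the length trend, 20 without both mice and 0 to 4 with 1 mouse left out. The median of 0.23 became -0.33 without the length trend and -0.26 without both mice. The causes were not tested.

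Calls kept in every alternative in which the gene was fitted were 2 of 7 in the Aldh1l1 fractions (Rpl10a and Rps27l), 9 of 31 in the Cx3cr1 positive fraction against input, 1 of 2 against negative (Rpl10a), 2 of 15 against tissue (Rpl10a and Rpl7l1), 2 of 15 between the positive fractions (Rpl10a and Rpl22), 2 of 9 for the difference between the lines (Rpl10a and Rpl22), 0 of 8 for input against tissue and 0 of 2 for negative against input. With 3 mice, exact tests could not go below 0.25. Rps4y2 had no transcript length and was not refitted for it.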
